A study of Mus musculus with 6 samples.

Results

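Goblet cells are the mucus-secreting cells of the intestinal epithelium, and 9 genes of their secretory programme (Muc2, Fcgbp, Zg16, Tff3, Retnlb, Ang4, Agr2, Atoh1 and Spdef) were followed in the large intestine of mice. The 9 were chosen by name, as genes of goblet cells, out of 35434 genes in the table. Earlier results of these data were known at this choice. Each gene was read in all 6 libraries. The mice had inflammatory bowel disease and had received a transfer of regulatory T cells, either control cells or cells treated with lenvatinib, an inhibitor of receptor tyrosine kinases. The libraries are titled int 2 and int 3, with 3 libraries each, and the labels do not say which title stands for which transfer. Strain, age and the way the disease was induced are not given in the sources used here, nor whether each library is another animal. Differences are therefore written as int 3 minus int 2, no treatment is assigned to either group, and p-values measure the spread between these libraries only.

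Goblet cells build the colonic mucus layer from the gel-forming mucin MUC2, which is folded in the endoplasmic reticulum with the help of AGR2, packed in granules and released together with FCGBP, ZG16 and TFF3. The cells arise when ATOH1 commits a crypt progenitor to the secretory lineages, and SPDEF drives their maturation. Some goblet and crypt secretory cells also release the defence proteins RELM-beta, encoded by Retnlb, and angiogenin 4, encoded by Ang4.

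Promoter sequences were matched by symbol for 6 of the 9 genes in RefSeq on GRCm38.p6, and 4 are shown because these genes took different courses in the int 3 libraries. Zg16, Tff3 and Retnlb were not matched. Each run holds the 250 bases before the transcription start, written 5′ to 3′ on the strand of the gene. Capitals mark 4 kinds of motif, searched on both strands: TATAA (TATA box), CAGCTG or CAGATG (E-boxes of the type that ATOH1 binds), CGGAT (SPDEF type) and TTTATNG (CDX type). The windows are chr7:141690090-141690339 on the plus strand for Muc2, chr17:27728952-27729201 on the minus strand for Spdef, chr7:28070986-28071235 on the plus strand for Fcgbp and chr14:51773591-51773840 on the minus strand for Ang4.
Muc2: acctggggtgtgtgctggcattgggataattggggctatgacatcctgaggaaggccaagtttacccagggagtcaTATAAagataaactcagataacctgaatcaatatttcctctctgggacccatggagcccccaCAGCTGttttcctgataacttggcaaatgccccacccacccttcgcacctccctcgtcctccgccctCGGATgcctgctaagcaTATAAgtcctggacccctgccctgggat
Spdef: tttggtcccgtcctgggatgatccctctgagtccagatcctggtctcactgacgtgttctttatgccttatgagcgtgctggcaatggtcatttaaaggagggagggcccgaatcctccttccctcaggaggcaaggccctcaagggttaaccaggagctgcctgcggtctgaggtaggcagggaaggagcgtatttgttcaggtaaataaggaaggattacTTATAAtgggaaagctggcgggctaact
Fcgbp: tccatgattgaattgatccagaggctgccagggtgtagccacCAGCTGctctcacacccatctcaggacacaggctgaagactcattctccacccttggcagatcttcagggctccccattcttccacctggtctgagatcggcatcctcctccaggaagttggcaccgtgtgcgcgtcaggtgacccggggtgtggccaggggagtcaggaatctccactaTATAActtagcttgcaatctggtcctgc
Ang4: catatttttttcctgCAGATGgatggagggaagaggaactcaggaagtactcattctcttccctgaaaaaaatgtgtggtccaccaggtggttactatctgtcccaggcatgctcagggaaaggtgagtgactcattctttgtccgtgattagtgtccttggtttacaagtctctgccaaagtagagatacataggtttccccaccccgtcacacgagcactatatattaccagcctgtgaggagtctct
The Muc2 window held a TATAA 28 to 24 bases before the start and a second one farther upstream, the E-box CAGCTG and a CGGAT. Fcgbp shared the TATAA at 28 to 24 bases and also held CAGCTG, at 208 to 203 bases before the start. Spdef held TATAA on both strands, in overlapping matches at 28 to 23 bases, and Ang4 held CAGATG at 235 to 230 bases. Among all 32851 promoter windows of this length, 22.8% held TATAA, 25.5% one of the E-boxes, 13.4% CGGAT and 9.81% TTTATNG. Of the 6 matched genes, 3 held TATAA (Muc2, Fcgbp, Spdef), 3 an E-box (Muc2, Fcgbp, Ang4), 1 CGGAT (Muc2) and 1 TTTATNG (Agr2). A match describes the letters only and is no evidence of binding.

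The libraries were of like depth, with 34021820 to 35060599 fragments as recovered from the steps in the deposited FPKM, a level scaled to gene length and library depth. The int 2 libraries were close to each other and the int 3 libraries were not. Over the 9 genes the coefficient of variation was 0.837% to 3.11% in int 2 and 35.5% to 92.5% in int 3. Set against counting error of fragments, chi-square per degree of freedom averaged 3.02 in int 2 and 86.8 in int 3 over tested genes. For the 9 genes it was 0.135 to 9.88 in int 2 and 199 to 57272 in int 3. Whether the int 2 libraries are independent samples was not tested. In each of the 9 genes int 3-1 lay between int 3-2 and int 3-3. Its place on the FPKM scale from int 3-2 (0%) to int 3-3 (100%) was 47.5% to 54.7%. Of the 571 tested genes more than 2-fold apart between int 3-2 and int 3-3, int 3-1 lay between them in 99.3%, at a median place of 52.3% (quartiles 47.7% and 56.9%). Whether int 3-1 is independent of the other int 3 libraries was not tested, and int 3 values are given library by library for this reason. If it is not, every p-value and SD below that counts int 3-1 as a library of its own understates the spread of int 3.

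The labelled tissue is large intestine, and of 8 small intestinal markers Lct, Sis and Apoa4 stood at 0.0703 FPKM or less in each library and Defa24 was listed at 0. Fabp6 ranged from 3.40 FPKM in int 3-2 to 52.2 in int 3-3, Fabp2 from 24.5 in int 3-3 to 169 in int 3-2, and Alpi from 0.0244 in int 3-3 to 4.33 in int 3-2. Gata4 was low throughout but highest in int 3-2, at 0.533 FPKM (67 fragments). It stood at 0.0634 in int 3-1, at 0 in int 3-3 and at 0.0316 or less in int 2. All 9 goblet cell genes were at 1 FPKM or more in every library and entered the test. In bulk tissue fewer goblet cells and less RNA per goblet cell cannot be told apart.

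The goblet cell genes of int 3 split into opposite patterns. Muc2, Retnlb, Agr2, Spdef and Atoh1 were highest in int 3-2, where Muc2 stood at 4.93 times and Retnlb at 15.6 times the int 2 mean. Zg16, Tff3 and Fcgbp were highest in int 3-3, where Zg16 stood at 5.65 times and Tff3 at 3.28 times the int 2 mean. Ang4 was below int 2 in all 3 int 3 libraries, 51.9-fold in int 3-3. In limma's test of int 3 against int 2, 0 of the 9 genes passed at an adjusted p under 0.05, while 15.3% of the 12525 tested genes did.

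**Figure D1:**
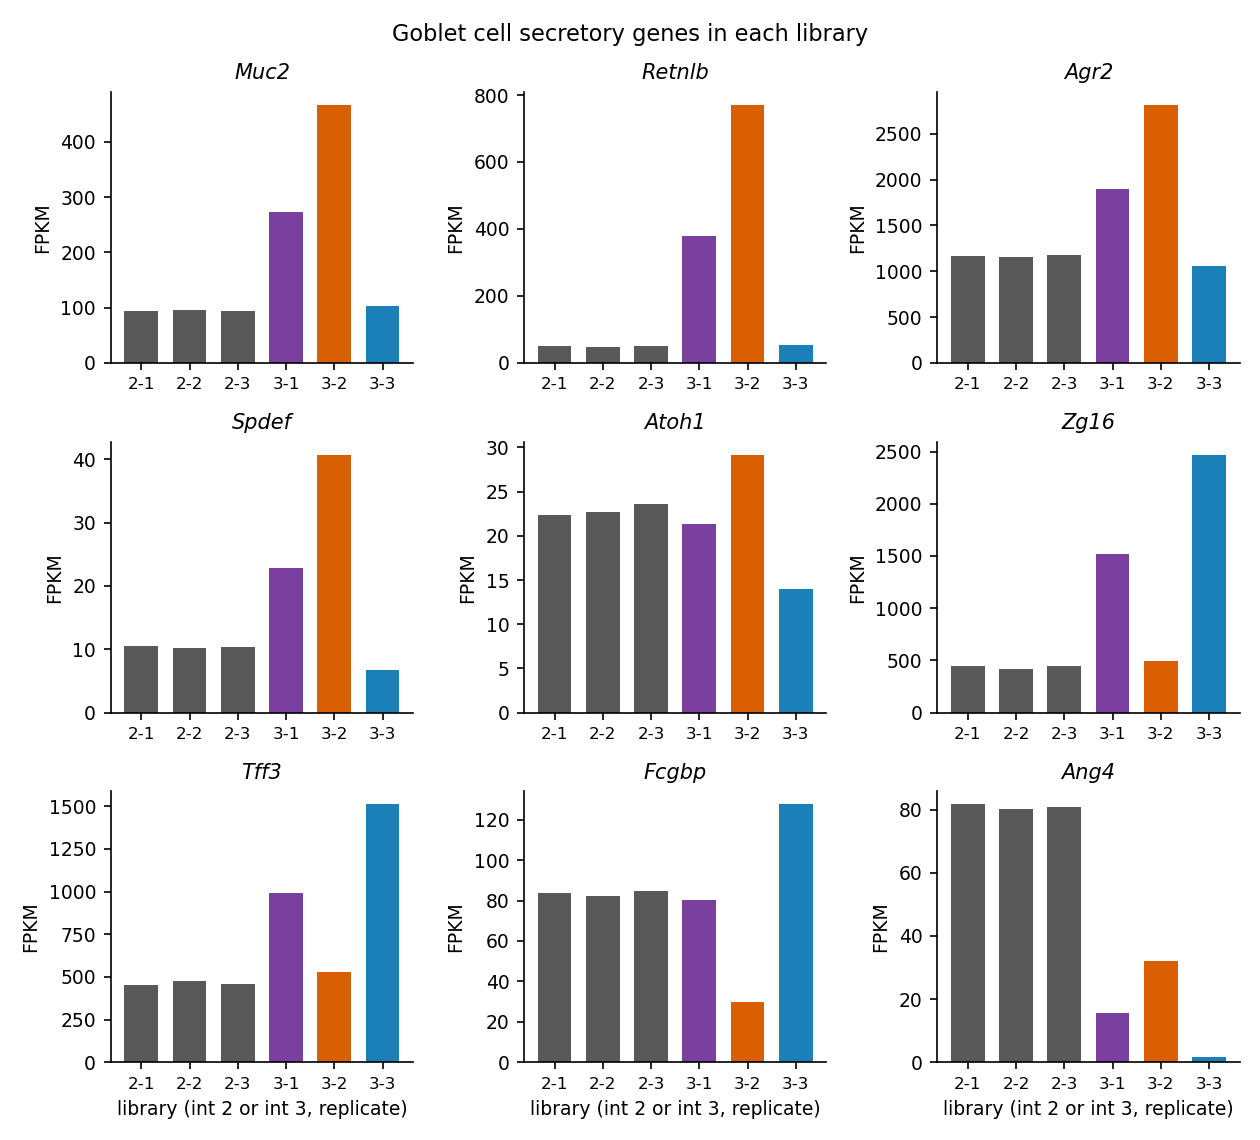
FPKM (y axis, from 0) of each gene in each of the 6 libraries (x axis, int 2 in grey, int 3-1 purple, int 3-2 orange, int 3-3 blue); each bar is 1 library. The int 2 bars are level, and int 3-1 lies between the other int 3 libraries in all 9 genes.

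Among the components of mucus, Muc2 encodes the gel-forming mucin itself. Muc2 measured 94.2, 96.1 and 93.5 FPKM over libraries 1, 2 and 3 of int 2, and 274 FPKM in int 3-1, 467 in int 3-2 and 102 in int 3-3. All int 3 values were above all int 2 values, but int 3-3 by little (1.08 times the int 2 mean). Between the groups Muc2 differed by 1.31 on the log2(FPKM + 1) scale (SE 0.51, limma adjusted p = 0.14), and so did not pass.

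Fcgbp encodes a large protein that binds MUC2 in the mucus. Fcgbp measured 83.8, 82.2 and 84.9 FPKM over libraries 1, 2 and 3 of int 2, and 80.2 FPKM in int 3-1, 29.9 in int 3-2 and 128 in int 3-3. The groups overlapped in order, with int 3-2 far below int 2 (2.80-fold under the mean), int 3-1 just below and int 3-3 above (1.53 times the mean). The log2 change of Fcgbp was -0.30 (SE 0.48, limma adjusted p = 0.7), and without int 3-2 its sign turned (0.27, adjusted p = 0.32).

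Zg16 encodes a small lectin-like protein that binds Gram-positive bacteria and holds them off the epithelium. Zg16 measured 444, 422 and 446 FPKM over libraries 1, 2 and 3 of int 2, and 1519.7 FPKM in int 3-1, 498 in int 3-2 and 2471 in int 3-3. The groups did not overlap, and int 3-2, the highest library for Muc2, was here the one nearest to int 2. Zg16 had a log2 change of 1.49 (SE 0.55, limma adjusted p = 0.12).

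Tff3 encodes the intestinal trefoil factor, a peptide of epithelial repair that is stored with the mucin. Tff3 measured 450.0, 476 and 458 FPKM over libraries 1, 2 and 3 of int 2, and 994 FPKM in int 3-1, 527 in int 3-2 and 1511 in int 3-3. Its order over the int 3 libraries was that of Zg16, again with no overlap between the groups. For Tff3 the log2 change was 1.00 (SE 0.35, limma adjusted p = 0.11).

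The balance of these mucus genes differed widely within int 3. The FPKM ratio of Zg16 to Muc2 was 4.71, 4.39 and 4.77 in the int 2 libraries and 5.55, 1.07 and 24.2 in int 3-1, int 3-2 and int 3-3. The ratio of Fcgbp to Muc2 was 0.855 to 0.907 in int 2 and 0.293, 0.0640 and 1.25 in the int 3 libraries in the same order. Int 3-1 was near int 2 in the first ratio and far below it in the second.

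Of the defence proteins, Retnlb encodes a secreted protein of the resistin-like family that acts on bacteria and worms. Retnlb measured 49.6, 48.0 and 50.3 FPKM over libraries 1, 2 and 3 of int 2, and 379 FPKM in int 3-1, 771 in int 3-2 and 54.9 in int 3-3. Int 3-1 was 7.69 times and int 3-2 15.6 times the int 2 mean, while int 3-3 was 1.11 times that mean, and the groups did not overlap. Even so Retnlb did not pass, at a log2 change of 2.34 (SE 0.90, limma adjusted p = 0.13).

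Ang4 encodes a ribonuclease with antimicrobial action. Ang4 measured 81.6, 80.3 and 80.7 FPKM over libraries 1, 2 and 3 of int 2, and 15.8 FPKM in int 3-1, 31.9 in int 3-2 and 1.56 in int 3-3. Every int 3 library was below every int 2 library, by 5.13-fold, 2.53-fold and 51.9-fold against the int 2 mean. The value of int 3-3 rested on 38 fragments (exact Poisson 95% interval 1.10 to 2.14 FPKM, for counting error only). Ang4 came nearest of the 9 genes to the threshold, at a log2 change of -2.87 (SE 0.88, limma adjusted p = 0.078). Its paralogs Ang2, Ang5 and Ang6 were listed at 0 in all libraries and Ang stood at 16.6 to 21.3 FPKM. How fragments shared between such close copies were counted is not given in the sources used here, so the level of Ang4 is uncertain to that extent.

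Agr2, the disulphide isomerase needed to fold MUC2, was the most abundant of the 9 genes in int 2. Agr2 measured 1164, 1157 and 1179 FPKM over libraries 1, 2 and 3 of int 2, and 1901 FPKM in int 3-1, 2814 in int 3-2 and 1056 in int 3-3. The groups overlapped in order, since int 3-3 was below int 2 and the other int 3 libraries above it. Agr2 had a log2 change of 0.61 (SE 0.33, limma adjusted p = 0.25).

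The transcription factors were the least abundant in int 2. Atoh1, the factor of secretory commitment, measured 22.4, 22.7 and 23.6 FPKM over libraries 1, 2 and 3 of int 2, and 21.3 FPKM in int 3-1, 29.2 in int 3-2 and 13.9 in int 3-3. Its int 3 values lay on both sides of int 2 and were the least spread of the 9 genes. For Atoh1 the log2 change was -0.15 (SE 0.24, limma adjusted p = 0.7), and it was 0.12 without int 3-3 (adjusted p = 0.47). Spdef, the factor of goblet cell maturation, measured 10.5, 10.2 and 10.4 FPKM over libraries 1, 2 and 3 of int 2, and 22.9 FPKM in int 3-1, 40.7 in int 3-2 and 6.67 in int 3-3. It was above int 2 in int 3-1 and int 3-2 and below it in int 3-3. Spdef had a log2 change of 0.79 (SE 0.57, limma adjusted p = 0.38).

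**Figure D2:**
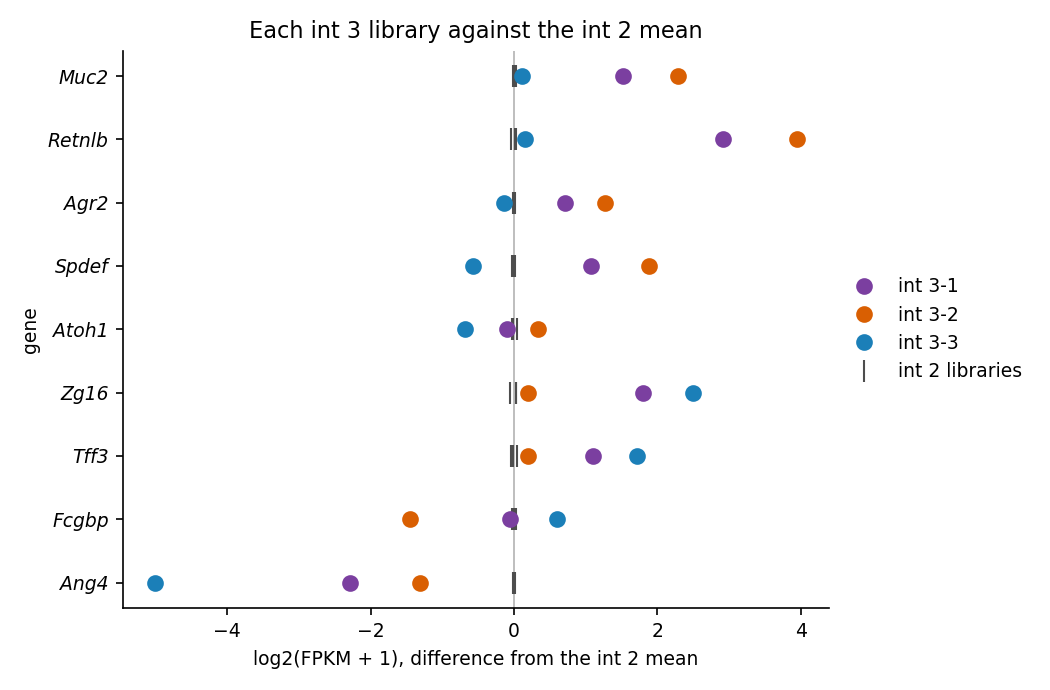
Difference of log2(FPKM + 1) from the int 2 mean (x axis) for each gene (y axis); dots are the int 3 libraries, each shown singly, and ticks the int 2 libraries. For Muc2, Retnlb, Agr2, Spdef and Atoh1 int 3-2 is farthest right, for Zg16, Tff3 and Fcgbp int 3-3, and all 3 dots of Ang4 are left of 0.

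Counted together, 5 of the 9 genes (Muc2, Zg16, Tff3, Retnlb and Ang4) were set apart between the groups without overlap, as were 40.4% of all tested genes. These 5 also had an unadjusted p under 0.05 in limma's test, from 0.016 for Ang4 to 0.041 for Muc2, as had 32.1% of all tested genes. The 9 genes went both ways, and their median log2 change was 0.79, against 0.03 over all tested genes. This median was 0.28 without int 3-2 and 0.99 without int 3-3 (0.00 and 0.07 over all tested genes).

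Which genes were called turned on the int 3 library left out. Int 3-1 lay about midway between int 3-2 and int 3-3, so leaving out either of these narrows the spread of int 3. Whether int 3-1 is independent of them was not tested, so p-values of these fits, and of the fit on all 6 libraries, may understate the spread. Without int 3-2, limma called 3 of the 9, Zg16 (2.15, adjusted p = 0.00089) and Tff3 (1.41, adjusted p = 0.0024) higher and Ang4 (-3.64, adjusted p = 0.015) lower, where 21.0% of all tested genes were called. In that fit Muc2 (0.82, adjusted p = 0.17), Retnlb (1.53, 0.18), Spdef (0.25, 0.71) and Agr2 (0.28, 0.42) were each more than 1.5 times below their log2 change over all libraries. Without int 3-3 it called 5, Muc2 (1.91, adjusted p = 0.0018), Retnlb (3.43, 0.00072), Spdef (1.47, 0.0047) and Agr2 (0.99, 0.006) higher and Ang4 (-1.80, 0.0044) lower, where 39.2% of all tested genes were called. Here Zg16 (0.99, adjusted p = 0.11) and Tff3 (0.65, 0.078) had their smallest log2 change over the leave-outs of int 3. Ang4 was thus lower in both of these fits. It was not called without int 3-1 (-3.16, adjusted p = 0.16), a fit that called 0 of the 9 genes and 5.13% of all tested genes. With limma weights that allow each group its own spread, 5 of the 9 passed (the genes without overlap, adjusted p from 0.021 for Ang4 to 0.049 for Muc2), against 14.9% of all tested genes. Voom on whole fragments called 1 of the 9, Ang4 (-3.15, adjusted p = 0.047), where 15.0% of the genes were called, and quantile normalization 1, Tff3 (1.12, adjusted p = 0.038), where 17.5% were.

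Between int 3-2 and int 3-3 all 9 genes were more than 2-fold apart on the log2(FPKM + 1) scale, a distance passed by 4.56% of the tested genes. There is 1 library on each side, so this difference has no test and compares these libraries only. The 9 genes were chosen with earlier results of these data known, and this comparison after seeing the data. The 4.56% is therefore given as a description only. Retnlb was 14.0 times (95% interval 13.3 to 14.9, from exact binomial limits on fragments, for counting error only) and Ang4 20.5 times (14.8 to 29.2) as high in int 3-2 as in int 3-3. For Spdef this ratio was 6.10 (5.66 to 6.58), for Muc2 4.57 (4.52 to 4.61), for Agr2 2.67 (2.63 to 2.70) and for Atoh1 2.09 (1.94 to 2.26). In the opposite direction Zg16 was 4.96 times (4.86 to 5.06), Fcgbp 4.27 times (4.16 to 4.37) and Tff3 2.87 times (2.79 to 2.94) as high in int 3-3. Only 10 of the 12525 tested genes were farther apart on the log2 scale than Retnlb and 12 than Ang4, while 552 were farther apart than Atoh1. The split was the same when levels were taken relative to 12 general epithelial genes, with 6 genes higher in int 3-2 and 3 in int 3-3.

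**Figure D3:**
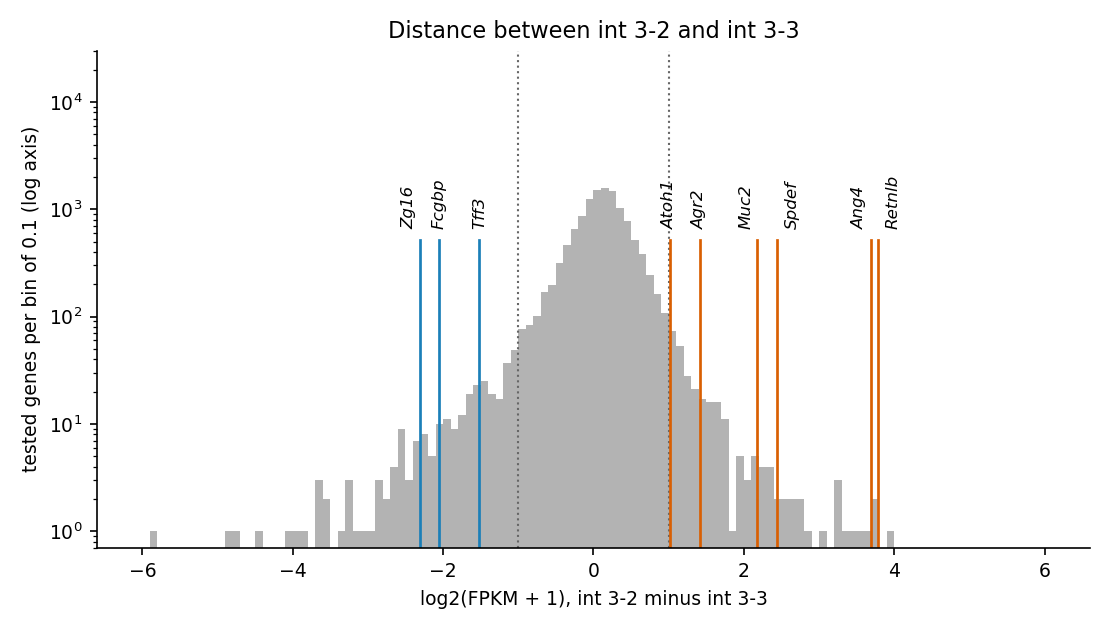
Number of tested genes (y axis, log scale) by the difference int 3-2 minus int 3-3 in log2(FPKM + 1) (x axis); dotted lines mark 2-fold and coloured lines the 9 genes. All 9 lie outside the dotted lines, 6 on the side of int 3-2 (orange) and 3 on the side of int 3-3 (blue).

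FPKM is scaled to gene length, so levels were ranked between genes. Bias between short and long genes (458 bases for Tff3, 13914 for Muc2) was not tested, and overlap over libraries does not measure it. In int 2 the order of mean FPKM was Agr2, Tff3, Zg16, Muc2, Fcgbp, Ang4, Retnlb, Atoh1 and Spdef, and no neighbours in this order overlapped over the libraries. The nearest were Fcgbp (83.6 ± 1.33 FPKM, SD, n = 3) and Ang4 (80.9 ± 0.677), and Tff3 (461 ± 13.5) and Zg16 (437 ± 13.6). In int 3 every pair of neighbours overlapped. Retnlb, the seventh gene in the int 2 order, stood above Tff3, Zg16 and Muc2 in int 3-2. In int 3-3 Zg16 and Tff3 both stood above Agr2. The FPKM of the 9 genes summed to 2394 to 2426 in the int 2 libraries and to 5208, 5209 and 5344 in int 3-1, int 3-2 and int 3-3. The int 3 sums were thus close to each other although their makeup differed, with Agr2 the largest part in int 3-1 and int 3-2 and Zg16 in int 3-3. By share of fragments, which weights long genes more, the 9 genes made up 0.354% to 0.356% in int 2 and 0.778%, 1.02% and 0.571% in int 3-1, int 3-2 and int 3-3.

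Of a list of 26 other genes known from goblet cells, 25 were tested. Of these 1 rose, 2 fell and 22 did not pass, where 15.3% of all tested genes were called. The median log2 change of the 25 was 0.02. Klk1, a tissue kallikrein, fell from 1111 ± 22.6 to 434 ± 26.2 FPKM (SD, n = 3 each; log2 change -1.36, SE 0.06, limma adjusted p = 0.00019) and was low in each int 3 library at 425, 463 and 413 FPKM. Hepacam2 fell from 31.9 ± 0.747 to 24.5 ± 2.40 FPKM (-0.37, limma adjusted p = 0.025). Nlrp6, an inflammasome sensor linked to mucus release, rose from 35.0 ± 1.47 to 47.2 ± 6.15 FPKM (0.41, limma adjusted p = 0.038). Without int 2-1, int 2-2, int 2-3 or int 3-1 the last 2 did not pass, with adjusted p up to 0.11 for Hepacam2 and 0.15 for Nlrp6. Klk1 passed with each library left out, while Hepacam2 (adjusted p = 0.089 with TPM scaling) and Nlrp6 (adjusted p = 0.1 with median-of-ratios scaling) were also lost with another scaling.

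Within int 3, 7 of these 25 genes were more than 2-fold apart between int 3-2 and int 3-3, against 4.56% of all tested genes. Of the 7, 5 were higher in int 3-2 and 2 in int 3-3. B3gnt6, a mucin-type glycan enzyme, had 0.989 to 1.01 FPKM in int 2 but 8.39, 15.9 and 0.783 in int 3-1, int 3-2 and int 3-3. Galnt12, which starts mucin glycans, stood at 33.5, 50.6 and 22.5 FPKM in the int 3 libraries and at 20.7 to 22.3 in int 2. Both had the int 3 order of Muc2. Ern2, the stress sensor of mucous cells, stood at 12.2, 16.8 and 6.98 FPKM in int 3 and at 11.4 to 11.7 in int 2. Clca1, a secreted mucus protein, stood at 83.5, 20.8 and 137 FPKM in int 3 and at 184 to 187 in int 2, and Best2, a goblet cell anion channel, at 3.68, 0.463 and 7.39 against 12.5 to 14.0. These had the int 3 order of Fcgbp, with all int 3 values below int 2, but neither passed limma's test (adjusted p = 0.15 and 0.084). Klk1 and Spink4 were nearly level over the int 3 libraries, Spink4 at 1259.9, 1429 and 1302 FPKM.

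**Figure D4:**
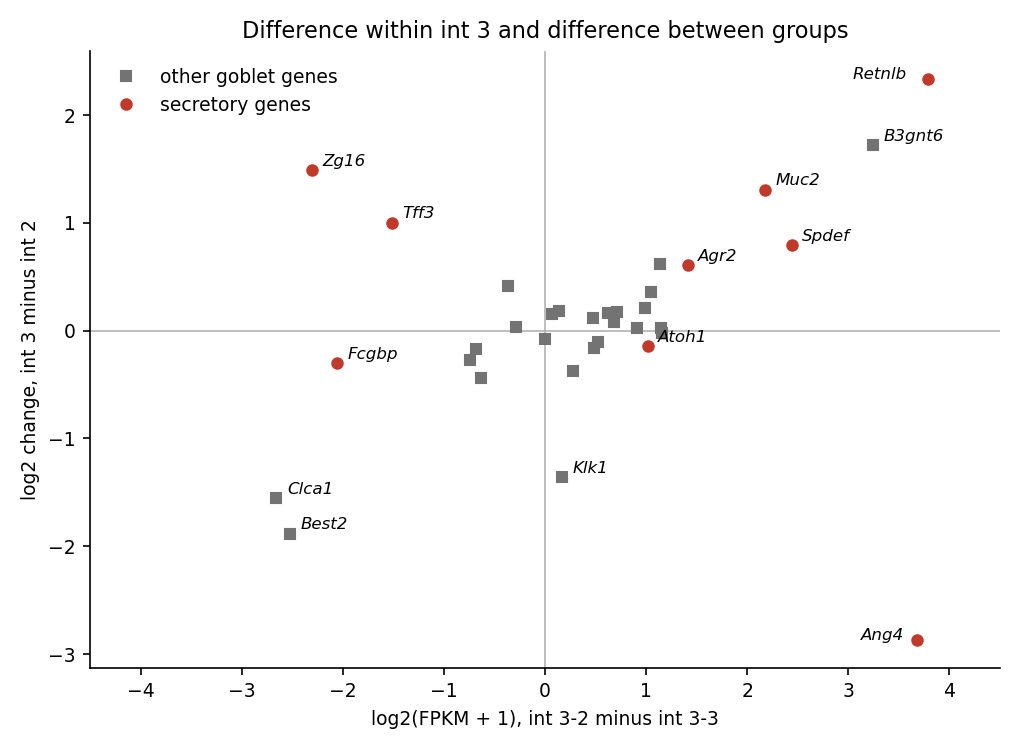
Log2 change int 3 minus int 2 (y axis) against the difference int 3-2 minus int 3-3 in log2(FPKM + 1) (x axis) for the 9 secretory genes (red dots) and 25 other goblet cell genes (grey squares); both axes use the same int 3 libraries. Besides the 9 genes, B3gnt6, Clca1, Best2 and Klk1 are named as the other goblet cell genes farthest from the crossing of the axes.

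Genes around the secretory programme were read from 3 lists, to be set against the 15.3% called among all tested genes. Of 14 tested genes of the choice between absorptive and secretory fate, such as the Notch pathway, 1 rose (Neurog3, 1.51 ± 0.425 to 2.71 ± 0.309 FPKM, limma adjusted p = 0.038), 1 fell (Notch2, 3.11 ± 0.183 to 2.15 ± 0.208, adjusted p = 0.024) and 12 did not pass. Both calls were lost with 1 library left out (Neurog3 without int 2-1, int 2-2 or int 3-1, adjusted p up to 0.15; Notch2 without int 2-1, int 2-2, int 2-3 or int 3-1, adjusted p up to 0.12). Relative to the epithelial genes neither Neurog3 nor Notch2 passed (limma adjusted p = 0.13 for each), and Notch2 was also lost with TPM scaling (0.059). The median log2 change of this list was 0.02. Of 11 tested genes of mucin folding and the endoplasmic reticulum 0 passed in limma (0 also at an unadjusted p under 0.05). Hspa5, the main chaperone of that compartment, was at 171 to 178 FPKM in int 2 but 251, 365 and 143 in int 3-1, int 3-2 and int 3-3, the same int 3 order as Agr2. Of 9 tested genes of granule release 3 rose and 6 did not pass. These were Snap23 (0.42, limma adjusted p = 0.006), a SNARE protein of exocytosis, Rab27a (0.40, adjusted p = 0.016), a granule GTPase, and Nlrp6. Rab27a did not pass without int 2-1, int 2-2, int 2-3 or int 3-1 (adjusted p up to 0.087). Relative to the epithelial genes neither Snap23 (adjusted p = 0.14) nor Rab27a (adjusted p = 0.22) passed.

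Cytokines that act on goblet cells were mostly near 0. Il13 and Il4, the type 2 cytokines known to induce Retnlb, were listed at 0 in all int 3 libraries and stood at 0.144 FPKM or less in int 2. The int 2 values rested on at most 3 fragments in a library, so absence and a low level cannot be told apart. The part of these cytokines in the level of Retnlb was not tested. Of 10 tested cytokine and receptor genes 3 rose and 7 did not pass, where 15.3% of all tested genes were called. The receptor chains Il13ra1 (24.1 ± 0.631 to 32.8 ± 1.20 FPKM, limma adjusted p = 0.004) and Il4ra (6.99 ± 0.268 to 13.4 ± 2.69, adjusted p = 0.011) were among them, with Tnf (0.394 ± 0.0715 to 1.92 ± 0.384, adjusted p = 0.0033). Il4ra did not pass without int 2-1, int 2-2, int 2-3 or int 3-1 (adjusted p up to 0.059), and relative to the epithelial genes neither did Il13ra1 (adjusted p = 0.094). Among the paralogs of the 9 genes, Muc5ac and Muc5b were listed at 0 in every library and Tff1 and Tff2 stood at 0.360 FPKM or less. Retnla, a macrophage relative of Retnlb, fell from 10.2 ± 1.21 to 2.56 ± 1.13 FPKM (-1.69, limma adjusted p = 0.0062).

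Markers of other cells and of position differed beside the goblet cell genes. Their counts of calls are to be set against the 15.3% called among all tested genes. The summed level of 12 epithelial genes was 8459 to 8479.9 FPKM in int 2 and 8676, 7211 and 10082 in int 3-1, int 3-2 and int 3-3, and Epcam was at 681 to 700.0 in int 2 against 638, 595 and 684. Of the 12 genes 1 rose (Elf3, limma adjusted p = 0.038, up to 0.14 with int 2-1, int 2-2, int 2-3 or int 3-1 left out). The 6 distal Hox genes summed to 309 to 313 FPKM in int 2 and to 175, 27.1 and 312 in the int 3 libraries, and Hoxb13 made up most of each sum. Hoxb13 of that list, a marker of the distal large intestine, was at 285 to 288 FPKM in int 2 against 146, 16.4 and 267 (limma adjusted p = 0.27). Single genes of the list differed, with Hoxa13 at 10.5 to 11.7 FPKM in int 2 and 10.1 in int 3-2. Hoxd13 was at 9.80 to 11.1 in int 2, 0.286 in int 3-2 and 26.4 in int 3-3. Thus int 3-2, high in Muc2 and Retnlb and low in Fcgbp, was also the library low in distal Hox genes other than Hoxa13. The 5 B cell genes summed to 142 to 149 FPKM in int 2 and to 24.9, 4.31 and 40.3 in int 3, in the int 3 order of Fcgbp. All 5 fell, among them Fcmr and Cd79b (limma adjusted p = 0.013 and 0.014), which were not called without int 2-1, int 2-2, int 2-3 or int 3-1 (adjusted p up to 0.068 and 0.072). The calls of the other B cell genes were also lost in such fits, with adjusted p up to 0.14 for Cd79a and 0.11 for Ms4a1. Of 5 macrophage genes 4 rose, led by C1qa, Cd68 and C1qb (adjusted p = 0.00089, 0.0014 and 0.0041). Adgre1 also rose (limma adjusted p = 0.019), but not without int 2-2, int 2-3 or int 3-1 (up to 0.088) or relative to the epithelial genes (0.11). Of 5 smooth muscle genes 2 fell (Des and Cnn1), and of 10 colonocyte genes 3 fell (Aqp8, Slc26a3 and Slc9a3), with adjusted p up to 0.14 for these with int 2-1, int 2-2, int 2-3 or int 3-1 left out. Cnn1 was also lost with TPM scaling (limma adjusted p = 0.13), quantile normalization (0.3) and relative to the epithelial genes (0.14). Slc9a3 was lost relative to the epithelial genes (0.066). The part of these differences in the goblet cell results was not tested.

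Genes of other secretory cells of the epithelium were also counted, again beside the 15.3% called among all tested genes. Of 4 deep crypt secretory genes 3 fell (Lyz1, Reg4 and Mptx1, limma adjusted p = 0.0011, 0.0046 and 0.038) and Kit did not pass. Mptx1 was not called without int 2-1, int 2-2, int 2-3 or int 3-1 (adjusted p up to 0.13). Reg4 was at 698 to 728 FPKM in int 2 but 131, 72.4 and 184 in int 3-1, int 3-2 and int 3-3, so that like Ang4 it was below int 2 in every int 3 library, but in the reverse order. Of 7 enteroendocrine genes 1 fell (Gcg, limma adjusted p = 0.0028) and 6 did not pass. Of 3 tested tuft cell genes 1 fell (Trpm5, adjusted p = 0.026, and up to 0.11 with int 2-1, int 2-2, int 2-3 or int 3-1 left out).

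The genes nearest to each of the 9 in their profile over the 6 libraries were taken by the smallest root mean square (RMS) difference of centred log2(FPKM + 1). The 3 nearest to Retnlb were Myl7 (0.21), Sptssb (0.31) and B3gnt6 (0.35), with Pearson's r of 0.99 to 1.00 over 6 libraries. For Muc2 they were Emp1 (0.10), Adipoq (0.12) and Car12 (0.15), and for Spdef Prom1 (0.08), Rgs5 (0.09) and Ccl9 (0.10). For Agr2 they were Rap1gap, Hyou1 and Il33 (0.04 to 0.06) and for Atoh1 Klf2, Mettl7b and Firre (0.03 to 0.04). Zg16 was nearest to Ly6g (0.26), Ifit1bl1 (0.27) and Ly6g2 (0.34), Tff3 to Slc7a9 (0.07), Gstp3 (0.09) and Sprr2a3 (0.13), and Fcgbp to Gk (0.02), Aldh1l1 (0.03) and Acpp (0.04). Ang4 had no close neighbour, the nearest being Slc9a3 (0.96), Cyp2c55 (1.08) and Guca2a (1.10). These values describe 6 libraries of which the int 2 libraries are nearly alike, so likeness here rests mainly on the int 3 libraries.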

How the data were processed

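Per the labels' protocols, TRIzol was used to extract total RNA from 6 mouse large intestine samples, and the library kit was VAHTS Universal V10. The authors deposited 1 table of FPKM values by gene symbol. The unit was read from the name of the table and from its values. The submitters' processing notes name GRCm39 as build, and the aligner, counter and annotation are not given in the sources used here. Columns were tied to samples by title.

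The 12525 genes whose FPKM reached 1 in 3 or more of the 6 libraries were fitted in limma 3.58.1 (R 4.3.3) on log2(FPKM + 1), int 3 minus int 2, with a mean-variance trend, two-sided tests and Benjamini-Hochberg adjustment over all of them. Fold values between libraries are ratios of FPKM. A log2 change on the log2(FPKM + 1) scale understates changes of genes at low FPKM. Whole fragments were recovered from the steps of the deposited FPKM values for 12493 genes (99.7%, within 0.02 fragments) and used for depth, counting intervals and voom. The fit and the recovery were run on simulated data. For the fit, the simulated libraries were independent and had the same spread in both groups. It thus does not show how the fit behaves with the unequal spread of int 2 and int 3, or if int 3-1 is not independent. Alternatives were other pseudocounts, filters and scalings, levels relative to epithelial genes, group weights, voom, the replicate number as a block, each library left out and int 2 averaged to 1 sample. The comparison of int 3-2 with int 3-3 and its alternatives were chosen after seeing the data.

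The 9 genes and the gene lists were chosen with earlier results of these data known. All 9 are named whatever their values. Of each other list up to 3 called genes in each direction with the smallest p are named, with Epcam and Hoxb13 and the 3 nearest profiles of each gene. A gene that this rule would name is not reported here. Other genes of the lists were named after their values were seen. Promoter sequences are RefSeq's on GRCm38.p6 and were matched by symbol. No coordinates of the files were used. Python 3.11.15, pandas 2.3.3, scipy 1.17.1 and matplotlib 3.10.9 were used.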

Additional observations from a re-analysis of the deposited data

How the results depend on the processing

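No result of the 9 genes in the comparison of int 3 with int 2 passed the threshold in the deposited FPKM, and 0 of them passed with other pseudocounts, filters, TPM or median-of-ratios scaling, or relative to epithelium. The number was 1 after quantile normalization (Tff3; 2189 of all genes), 1 with voom (Ang4; 1874 of 12493) and 5 with library weights by group (1871 of all genes), and 0 to 5 with each library left out. The log2 change turned to 0.27 for Fcgbp without int 3-2 and to 0.12 for Atoh1 without int 3-3 (-0.76 to 0.27 and -0.39 to 0.12 over the libraries left out), and it kept its sign in the other 160 of 162 values. With the replicate number as a block 0 of the 9 genes, 1 of the other goblet cell genes (3 without the block) and 889 of all tested genes (1921 without it) were called. Same-numbered libraries did not deviate together (r = -0.01, 0.00 and -0.02). The int 2 libraries were nearly alike, so these values cannot show whether the numbers pair the samples. With int 2 averaged to 1 sample 0 other goblet cell genes and 0 of all genes were called, in a fit where int 3 alone gives the spread. With each library left out, 1 to 13 of the other goblet cell genes and 615 to 4913 of all genes were called. Relative to epithelium 1143 of all genes were called, 33.6% of them higher, against 56.3% in the deposited FPKM and 67.2% of 1885 with TPM scaling. The cause of these shifts was not tested. All 9 genes were more than 2-fold apart between int 3-2 and int 3-3 under each of the 4 alternatives tried. These were levels relative to epithelium, TPM scaling and 2 smaller pseudocounts, which can only widen such a distance. Atoh1 was just past the cut (1.01 on the log2 scale, where the median over all tested genes was 0.12). Median-of-ratios scaling and quantile normalization were not tried for this comparison, so the count of 9 may not hold under them. Among the 9 genes the lowest depth was 38 fragments, for Ang4 in int 3-3. Other named genes rested on fewer, such as Best2 (34) and Fcmr (13) in int 3-2 and Trpm5 (13) in int 3-3.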
